A study of Homo sapiens with 2 samples.

Results

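Among the 10 genes described here, NFKB1, NFKB2, REL, RELA and RELB encode the NF-κB transcription factor subunits. NFKBIA and NFKBIZ encode members of the IκB family. TNFAIP3 and BIRC3 encode feedback regulators, and IKBKE encodes a kinase. The genes were chosen by symbol. All 10 were found once each among the 57820 genes listed for the human liver cancer lines SKHEP1 and HepG2. Both lines were unmodified (genotype WT), were grown in DMEM with serum and were profiled by stranded mRNA sequencing, with 1 library per line and no treatment in the labels. SKHEP1 is labelled as endothelial cells and HepG2 as hepatocellular carcinoma. The study profiled the lines for the long noncoding RNA PURPL and its variants, not for NF-κB.

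NF-κB proteins bind DNA as dimers. In the canonical pathway, receptors for TNF, interleukin-1 and microbial products activate the IKK complex, which marks the inhibitor IκBα (NFKBIA) for destruction and so frees dimers of RELA or REL with p50, the processed product of NFKB1. In the alternative pathway, receptors such as CD40 and the lymphotoxin beta receptor stabilise the kinase NIK (MAP3K14), which leads to processing of the NFKB2 precursor and to dimers of its product with RELB. Several of these genes are themselves textbook NF-κB targets, among them NFKBIA, TNFAIP3, BIRC3, NFKB2 and RELB.

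The promoters of most of these genes hold the kappaB consensus, the 10-base DNA motif that NF-κB dimers bind. The sites are shown because they are a sequence feature common to most, but not all, of these genes. Promoter windows, from 250 bases before to 50 bases after each RefSeq start site (GRCh38.p14), were matched by symbol for 9 of the 10 genes, all but RELB. The consensus was searched on both strands. It was found in the windows of 7 of these 9 genes, NFKB1, NFKB2, REL, NFKBIA, NFKBIZ, TNFAIP3 and BIRC3, and in none of the windows of RELA and IKBKE. By window it was in 9 of 14 (64.3%), against 5.91% of all 35116 windows, and of the 10326 genes compared between the lines that had a window, 9.14% held it. In all, 13 separate matches were found; 8 are listed here, the 2 of BIRC3 follow, and 2 more in NFKB2 and 1 in NFKBIZ are not printed. Each line below gives 30 bases on the gene's own strand with the match in capitals. Matches that overlap, as the sequence and its reverse complement do in REL and the first NFKB2 site, are shown as a single run of capitals.
NFKB1 (chr4:102501300-102501329, plus strand): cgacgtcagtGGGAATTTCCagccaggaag
NFKB2 (chr10:102394461-102394490, plus strand): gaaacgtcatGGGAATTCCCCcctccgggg
NFKB2 (chr10:102395674-102395703, plus strand): tggtattttcGGGACTTTCCtaagctgctc
REL (chr2:60881517-60881546, plus strand): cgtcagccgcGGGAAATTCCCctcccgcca
NFKBIA (chr14:35404811-35404840, minus strand): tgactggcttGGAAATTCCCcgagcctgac
NFKBIZ (chr3:101827757-101827786, plus strand): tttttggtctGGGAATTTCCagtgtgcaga
TNFAIP3 (chr6:137867182-137867211, plus strand): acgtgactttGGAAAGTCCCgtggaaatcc
TNFAIP3 (chr6:137867194-137867223, plus strand): aaagtcccgtGGAAATCCCCgggcctacaa
NFKB1 and the upstream NFKBIZ window carry the same 10 bases. The pair of TNFAIP3 sites lie next to each other, so that each printed run holds part of the other site. A match describes the letters in the window and was not tied to binding in these cells.

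BIRC3 differed most between the lines, and its promoter is therefore printed at greater length, from 250 to 51 bases before the start site (chr11:102317234-102317433, plus strand, GRCh38.p14), with both kappaB matches in capitals.
BIRC3: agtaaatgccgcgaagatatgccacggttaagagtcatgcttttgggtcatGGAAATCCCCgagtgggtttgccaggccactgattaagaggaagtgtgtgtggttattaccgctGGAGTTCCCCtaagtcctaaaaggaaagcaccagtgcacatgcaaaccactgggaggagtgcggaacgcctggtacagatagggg

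The SKHEP1 library held 19940562 rounded expected counts and the HepG2 library 22477743, and the 15436 genes that reached 10 counts in SKHEP1, in HepG2 or in both were compared. Since each line has a single library, differences have no replicate check and none was tested. Intervals at 95% are exact and cover counting error only, and reads copied by PCR may come from the same molecule. In these bulk libraries, fewer cells that express a gene and less RNA per cell cannot be told apart. The cell labels were checked against marker genes. In SKHEP1, the endothelial markers KDR, CLDN5, ERG and EMCN had 0 counts and 7 of 13 markers matched were under 10 counts. The endothelial label is therefore not borne out by most of these genes. ENG, ROBO4, EGFL7 and THBD were detected and were at least 4-fold higher in SKHEP1. ESAM and TIE1 went the other way, with 16 and 10 counts in SKHEP1, against 144 and 18 in HepG2. All 10 hepatocyte markers were at least 4-fold higher in HepG2, where their TPM summed to 50410 against 97.3 in SKHEP1, and ALB and HNF4A were at 0 in SKHEP1. Markers of immune cells, which are rich in NF-κB genes, were also read. The lymphocyte markers summed to 0.34 TPM in SKHEP1 and 2.73 TPM in HepG2, with 7 of 10 at 0 counts in SKHEP1 and 5 of 10 in HepG2. Of the macrophage markers, 7 of 10 were at 0 counts in SKHEP1 and 4 of 10 in HepG2. The macrophage markers summed to 149 TPM in SKHEP1, mostly the lysosomal gene CD68, and to 2090 TPM in HepG2, mostly LYZ. Both libraries are labelled as cell lines grown in culture, and whether any immune cells were present was not tested.

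All 10 genes were expressed in both lines, with 280 to 2452 counts in SKHEP1 and 87 to 2168 counts in HepG2. The largest gap was that of BIRC3, which was 24.9-fold higher in SKHEP1, followed by RELB, NFKBIZ and NFKB2. NFKBIA, NFKB1 and REL were lower in SKHEP1 than in HepG2. Ratios are of counts-per-million (CPM, scaled by TMM effective library size), SKHEP1 over HepG2, and levels of different genes are compared in the deposited TPM (transcripts-per-million), which account for gene length.

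Counted at 4-fold, 2 of the 10 genes, BIRC3 and RELB, were higher in SKHEP1, where 16.5% of all genes compared were. None was at least 4-fold higher in HepG2, where 13.0% of all genes compared were. At 2-fold, 4 of 10 were higher in SKHEP1, with NFKBIZ and NFKB2 added, against 25.0% of all genes, and none was higher in HepG2, against 23.4%. With housekeeping scaling, 3 were at least 2-fold higher in SKHEP1, without NFKB2, and 1, NFKBIA, in HepG2. The median log2 ratio of the 10 genes was 0.70, against 0.03 for all genes compared, and 7 of 10 lay above 0, against 51.0% of all genes. The 20 housekeeping genes had a median of 0.47, so log2 ratios of that size were also seen for genes outside the pathway.

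**Figure D1:**
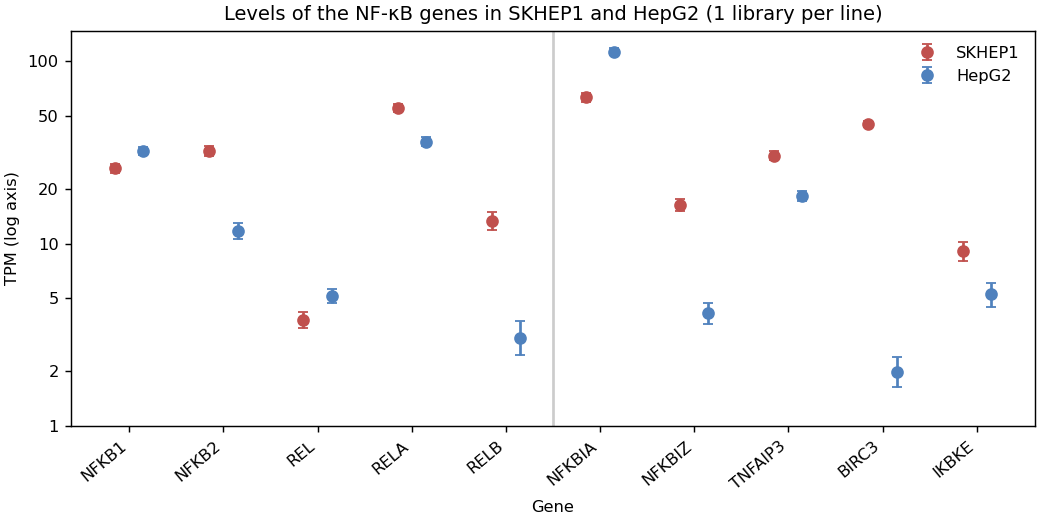
Deposited TPM (log axis) of the 10 NF-κB genes in SKHEP1 (red) and HepG2 (blue), 1 library per line, with bars for the 95% Poisson interval of the count behind each value; the vertical line separates the 5 subunits from the other genes. BIRC3 is at 45.4 TPM in SKHEP1 and 1.98 TPM in HepG2, and NFKBIA, NFKB1 and REL are the genes with the higher point in HepG2.

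The subunits that carry a transactivation domain are RELA, RELB and REL. RELA, or p65, the main activating subunit of canonical dimers, had 1457 counts in SKHEP1 (interval 1383 to 1534), against 1145 in HepG2 (1080 to 1213), or 55.5 TPM in SKHEP1 and 36.3 TPM in HepG2. It was 1.40-fold higher in SKHEP1 (1.29 to 1.51), and its log2 ratio of 0.48 was close to the housekeeping median. RELA was the most abundant subunit mRNA in both lines.

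RELB, the partner of the NFKB2 product in the alternative pathway, had 322 counts in SKHEP1 (288 to 359), against 87 in HepG2 (69.7 to 107). That is 13.3 TPM in SKHEP1 and 3.04 TPM in HepG2, a CPM ratio of 4.06 (3.20 to 5.21). RELB therefore lay just past the 4-fold limit, and its ratio was 2.94 when scaled to the housekeeping genes and 3.95 with DESeq2 size factors.

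REL, or c-Rel, known best from lymphocytes, was the lowest of the 10 genes in SKHEP1. It had 384 counts in SKHEP1 (347 to 424), against 492 in HepG2 (449 to 537), or 3.81 TPM in SKHEP1 and 5.14 TPM in HepG2, and was 1.17-fold higher in HepG2 (1.02 to 1.34). With the TPM values this became 1.35-fold. The difference between the units goes with the estimated gene length, which RSEM weights by isoform and which was 8091 bases in SKHEP1 and 6822 in HepG2 for REL. The noncoding gene RP11-373L24.1, at 113 counts in SKHEP1, against 152 in HepG2, overlaps REL on the same strand in GENCODE 29, so reads between them are uncertain.

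The precursor genes NFKB1 and NFKB2 differed in opposite directions. NFKB1, which encodes p105 and its product p50, had 1173 counts in SKHEP1 (1107 to 1242), against 1679 in HepG2 (1600 to 1761). At 25.9 TPM in SKHEP1 and 32.3 TPM in HepG2, it was 1.30-fold higher in HepG2 (1.21 to 1.41). NFKB2, which encodes p100 and its product p52, had 932 counts in SKHEP1 (873 to 994), against 398 in HepG2 (360 to 439). At 32.2 TPM in SKHEP1 and 11.8 TPM in HepG2, it was 2.57-fold higher in SKHEP1 (2.28 to 2.90). NFKB2 thus exceeded NFKB1 in SKHEP1, with 1.24 transcripts of NFKB2 per transcript of NFKB1, while HepG2 had 0.365. A ratio of genes within a library needs no scaling between libraries, and by counts the ratio of NFKB2 to NFKB1 was 3.35 times larger in SKHEP1 than in HepG2 (interval 2.91 to 3.86).

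Together the 5 subunits summed to 130.8 TPM in SKHEP1 and 88.5 TPM in HepG2, which is 1.48 times as much in SKHEP1. The share of RELA in this sum was nearly alike, at 42.5% in SKHEP1 (40.9 to 44.0) and 41.0% in HepG2 (39.3 to 42.7), with overlapping intervals. By CPM, not corrected for length, it was 34.1% in SKHEP1 and 30.1% in HepG2. NFKB1 made up 19.8% in SKHEP1 (18.7 to 20.9) and 36.5% in HepG2 (35.0 to 38.0). NFKB2 made up 24.6% in SKHEP1 (23.3 to 26.0) and 13.3% in HepG2 (12.1 to 14.6). RELB held 10.2% in SKHEP1 (9.17 to 11.3) and 3.43% in HepG2 (2.76 to 4.21), and REL 2.91% in SKHEP1 (2.62 to 3.23) and 5.81% in HepG2 (5.30 to 6.35). By TPM the 2 lines therefore had a like share of RELA, with more NFKB2 and RELB in SKHEP1 and more NFKB1 and REL in HepG2. The intervals on these shares treat the gene lengths as fixed. Within the lines, the ratio of RELB to RELA by counts was 2.91 times larger in SKHEP1 (2.26 to 3.78), and that of REL to RELA was 1.63 times larger in HepG2 (1.39 to 1.91).

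**Figure D2:**
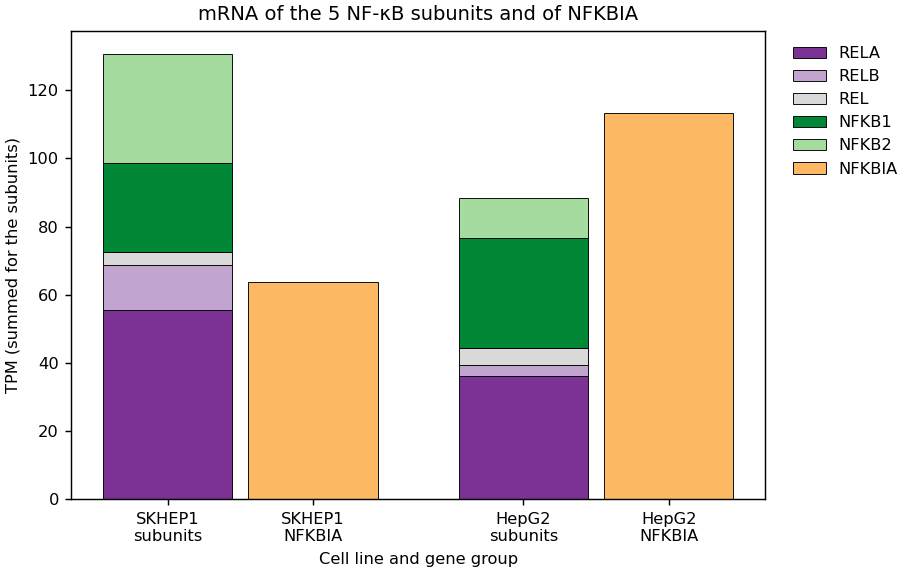
Stacked bars of the deposited TPM of the 5 NF-κB subunit genes, with the inhibitor gene NFKBIA beside them, for SKHEP1 (left pair) and HepG2 (right pair), 1 library each. The subunits sum to 130.8 TPM in SKHEP1 and 88.5 TPM in HepG2, and NFKBIA stands at 63.6 TPM and below the subunit bar in SKHEP1 but at 113 TPM and above it in HepG2.

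The IκB family genes NFKBIA and NFKBIZ also went opposite ways. NFKBIA, the IκBα that holds dimers in the cytoplasm, was the most abundant of the 10 mRNAs in both lines. It had 1086 counts in SKHEP1 (1022 to 1153), against 2168 in HepG2 (2078 to 2261), or 63.6 TPM in SKHEP1 and 113 TPM in HepG2, and was 1.82-fold higher in HepG2 (1.69 to 1.96). Against the summed subunits, there were 0.487 NFKBIA transcripts per subunit transcript in SKHEP1 and 1.28 in HepG2. The ratio of NFKBIA to RELA by counts was 2.54 times larger in HepG2 (2.28 to 2.83).

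NFKBIZ encodes IκBζ, an atypical family member that acts in the nucleus on a subset of NF-κB targets. It had 703 counts in SKHEP1 (652 to 757), against 213 in HepG2 (185 to 244), or 16.4 TPM in SKHEP1 and 4.15 TPM in HepG2. It was 3.62-fold higher in SKHEP1 (3.10 to 4.24), an interval that includes 4-fold, and within the lines the ratio of NFKBIZ to NFKBIA was 6.59 times larger in SKHEP1 (5.54 to 7.84). The other IκB genes, NFKBIB, NFKBIE, BCL3 and NFKBID, all lay within 4-fold, with a median log2 ratio of 0.53. NFKBIB had 398 counts in SKHEP1, against 328 in HepG2, and NFKBIE 362 in SKHEP1 and 289 in HepG2. BCL3, a nuclear IκB that binds p50 and p52, had 207 counts in SKHEP1, against 150 in HepG2, and NFKBID 41 in SKHEP1 and 25 in HepG2. By CPM, NFKBIA alone of these IκB genes was higher in HepG2, but NFKBIB (-0.05) and NFKBIE (-0.01) also lay below 0 on the log2 scale with housekeeping scaling, and NFKBID (-0.25) with TPM.

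The feedback gene TNFAIP3 encodes A20, a ubiquitin-editing enzyme that shuts off signalling to IKK. It had 1289 counts in SKHEP1 (1220 to 1361), against 940 in HepG2 (881 to 1002), or 30.4 TPM in SKHEP1 and 18.2 TPM in HepG2, and was 1.51-fold higher in SKHEP1 (1.38 to 1.64). Scaled to the housekeeping genes its log2 ratio was 0.12, against 0.59 with TMM. The ratio of TNFAIP3 to NFKBIA, another fast feedback gene, was 2.74 times larger in SKHEP1 by counts (2.45 to 3.06), since the pair lay on opposite sides of 0. A gene on the opposite strand of TNFAIP3, listed as RP11-356I2.4, had 5 counts in SKHEP1, against 15 in HepG2.

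BIRC3 encodes cIAP2, a ubiquitin ligase that blocks cell death downstream of TNF receptors and takes part in the complex that degrades NIK. It had 2452 counts in SKHEP1 (2356 to 2551), against 108 in HepG2 (88.6 to 130). At 45.4 TPM it was the third most abundant of the 10 genes in SKHEP1, and at 1.98 TPM the lowest in HepG2. The ratio was 24.9 (20.6 to 30.5), and 22.9 from TPM. Among genes with at least 10 counts in the same line, its TPM lay at percentile 74.9 in SKHEP1 and 13.3 in HepG2. The closely related BIRC2 (cIAP1), its neighbour on chromosome 11, was much less different, with 2348 counts in SKHEP1, against 1369 in HepG2, a CPM ratio of 1.88 (1.76 to 2.01). There were 0.772 BIRC3 transcripts per BIRC2 transcript in SKHEP1 and 0.0655 in HepG2, and by counts this ratio was 13.2 times larger in SKHEP1 (10.8 to 16.4).

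IKBKE encodes IKKε, a kinase related to the IKK catalytic subunits that acts with TBK1 in innate immune signalling. It had 280 counts in SKHEP1 (248 to 315), against 176 in HepG2 (151 to 204), or 9.07 TPM in SKHEP1 and 5.26 TPM in HepG2, a CPM ratio of 1.75 (1.44 to 2.12). TBK1 had 1422 counts in SKHEP1, against 771 in HepG2, a CPM ratio of 2.02 (1.85 to 2.21). The ratio of IKBKE to TBK1 was 0.863 times as large in SKHEP1 as in HepG2, with an interval of 0.697 to 1.07 that includes 1, so a difference in this balance was not detectable at this depth.

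**Figure D3:**
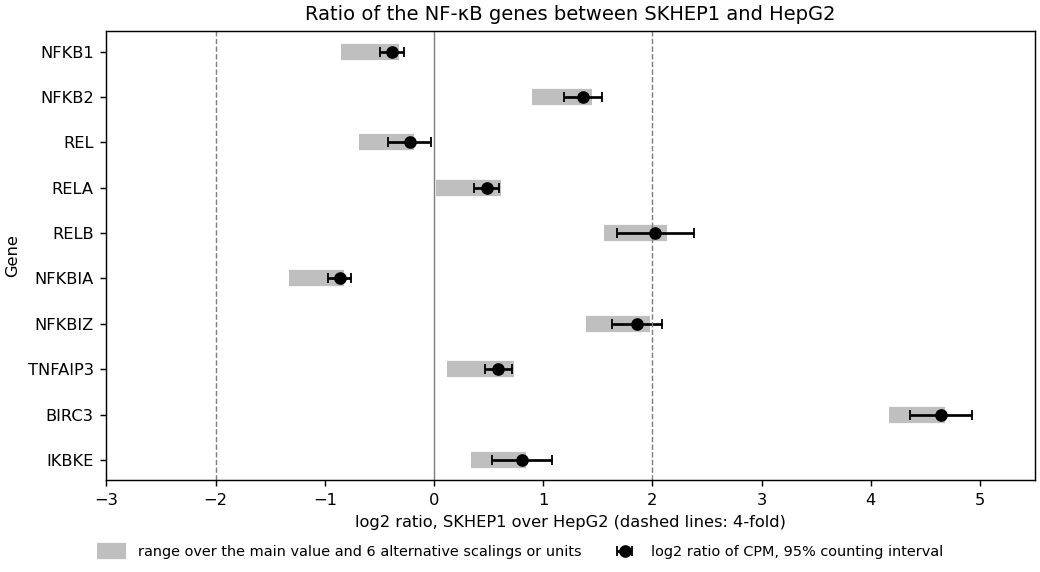
Log2 ratio of CPM, SKHEP1 over HepG2, of the 10 NF-κB genes, with 95% counting intervals (black) and the range over the TMM value and 6 alternative scalings or units (grey); dashed lines mark 4-fold. BIRC3 lies at 4.64, RELB at 2.02 and NFKBIZ at 1.86, and NFKBIA at -0.86 is the lowest.

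Ordered by TPM in SKHEP1, the 10 genes ran NFKBIA, RELA, BIRC3, NFKB2, TNFAIP3, NFKB1, NFKBIZ, RELB, IKBKE and REL, and of neighbours in this order only the intervals of NFKB2 and TNFAIP3 overlapped. In HepG2 the order was NFKBIA, RELA, NFKB1, TNFAIP3, NFKB2, IKBKE, REL, NFKBIZ, RELB and BIRC3, where neighbours from IKBKE to RELB had overlapping intervals. The top pair was the same in both lines, and BIRC3 moved most in the order.

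Of 13 genes for the IKK complex and kinases around it, 1 was at least 4-fold higher in SKHEP1 (16.5% of all genes compared) and 1 in HepG2 (13.0% of all genes), and their median log2 ratio was -0.15. The IKK catalytic genes differed in opposite directions: IKBKB had 1282 counts in SKHEP1, against 490 in HepG2, a CPM ratio of 2.87 (2.59 to 3.19), whereas CHUK had 872 counts in SKHEP1, against 1433 in HepG2 and was 1.50-fold higher in HepG2 (1.37 to 1.63). IKBKG, the regulatory subunit NEMO, had 605 counts in SKHEP1, against 746 in HepG2. RIPK2, the kinase downstream of NOD receptors, was 2.17-fold higher in SKHEP1.

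MAP3K14, which encodes NIK, was the kinase past 4-fold in SKHEP1, with 767 counts in SKHEP1, against 188 in HepG2 and a ratio of 4.48 (3.81 to 5.28). MAP3K8, a kinase bound by the NFKB1 precursor, went the other way, with 36 counts in SKHEP1, against 196 in HepG2, and was 4.96-fold higher in HepG2 (3.46 to 7.29). Of the receptors that feed the alternative pathway, CD40 had 356 counts in SKHEP1, against 72 in HepG2, a CPM ratio of 5.43 (4.20 to 7.09). LTBR, the lymphotoxin beta receptor, had 2538 counts in SKHEP1 and 1106 counts in HepG2, a CPM ratio of 2.52, and TNFRSF12A, the receptor of TWEAK, 1696 in SKHEP1 and 884 in HepG2, a CPM ratio of 2.11. TNFRSF11A, or RANK, another receptor that can feed this pathway, went the other way, with 102 counts in SKHEP1, against 433 in HepG2, and was 3.87-fold higher in HepG2 (3.11 to 4.85). TNFSF12, which encodes TWEAK, had 344 counts in SKHEP1, against 32 in HepG2, a CPM ratio of 11.8 (8.20 to 17.5). The ligand genes CD40LG, LTA, LTB, TNFSF11 and TNFSF14 were under 10 counts in both lines. Of the adaptors that hold NIK low, TRAF3 was 1.84-fold higher in SKHEP1, and TRAF2 had a ratio of 0.953 (0.831 to 1.09), an interval that includes 1. LTBR, TNFRSF12A, TRAF2, TRAF3 and the ligand genes with few counts were chosen after their values were seen.

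Of 23 adaptors and ubiquitin ligases, 1 was at least 4-fold higher in SKHEP1 (16.5% of all genes) and another 1 in HepG2 (13.0% of all genes), and the list median was 0.26. TRAF5 had 285 counts in SKHEP1, against 8 in HepG2, a CPM ratio of 39.1 (19.6 to 91.5). It reached 10 counts only in SKHEP1, so it could be called higher only there. MYD88, the adaptor of interleukin-1 and Toll-like receptors, had 336 counts in SKHEP1, against 1567 in HepG2, and was 4.25-fold higher in HepG2 (3.77 to 4.79). BCL10 was 3.23-fold higher in SKHEP1. RNF31, the catalytic subunit of the linear ubiquitin ligase, was 3.19-fold higher in HepG2.

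Of 14 negative regulators compared outside the 10 genes, 2 were at least 4-fold higher in SKHEP1, a share near the 16.5% of all genes, and none was in HepG2 (13.0% of all genes), and the median was 0.41. TNIP1, which binds A20, had 4720 counts in SKHEP1, against 1281 in HepG2, a CPM ratio of 4.05 (3.80 to 4.31), just past the limit. TNIP3, of the same family, had 38 counts in SKHEP1, against 0 in HepG2. Its ratio was 13.9 with the HepG2 count set to the floor of 3, and the lower end of its counting interval was 10.8. TNIP3 reached 10 counts only in SKHEP1, so it could be called higher only there. The deubiquitinase CYLD was 2.78-fold higher in SKHEP1 and the A20 partner TAX1BP1 2.07-fold. The ubiquitin ligase ITCH, also an A20 partner, was 1.65-fold higher in HepG2, and N4BP1 2.02-fold.

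Receptors, ligands and target genes are given for context. Of 10 receptors compared, 4 were at least 4-fold higher in SKHEP1 (16.5% of all genes) and none in HepG2 (13.0% of all genes), and the median was 1.20. TNFRSF1A, the main TNF receptor, was 1.46-fold higher in SKHEP1, while TNFRSF1B had 190 counts in SKHEP1, against 1 in HepG2, a CPM ratio of 208.6 (37.0 to 8282). TLR3, a sensor of double-stranded RNA, had 257 counts in SKHEP1, against 3 in HepG2, a CPM ratio of 94.1 (31.8 to 459). TLR6 was 7.47-fold higher in SKHEP1. TNFRSF1B and TLR3 reached 10 counts only in SKHEP1, so they could be called higher only there. The interleukin-1 receptor IL1R1 had 569 counts in SKHEP1, against 1632 in HepG2, and was 2.61-fold higher in HepG2 (2.37 to 2.88).

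Of 12 ligands, 8 were under 10 counts in both lines, among them TNF with 2 counts in SKHEP1, against 1 in HepG2. The 4 others were all at least 4-fold higher in SKHEP1, as were 16.5% of all genes. They were IL1A and IL1B, with 1185 and 5392 counts in SKHEP1, against 0 in HepG2, TNFSF12, and IL18, which was 6.21-fold higher in SKHEP1. IL1A and IL1B reached 10 counts only in SKHEP1, so they could be called higher only there. Of 30 target genes compared, 19 were at least 4-fold higher in SKHEP1 (16.5% of all genes) and 1 was so in HepG2 (13.0% of all genes), and the median was 3.62. The neutrophil attractant CXCL1, its relative CXCL6 and the pattern recognition protein PTX3 had 6094, 2240 and 1321 counts in SKHEP1, against 1, 0 and 1 count in HepG2. CCL20 had 1 count in SKHEP1 and 1034 in HepG2, and the survival gene BCL2L1 was 3.41-fold higher in HepG2. Of the 36 target genes listed, 18 were under 10 counts in HepG2 and 7 in SKHEP1, with 6 under 10 in both lines. Those that reached 10 counts in a single line, such as CXCL1 or CCL20, could be called higher only there. Both lists were written with earlier results of these data known. Cytokine genes among the targets were already known to be higher in SKHEP1, so the counts are not independent evidence of a direction.

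**Figure D4:**
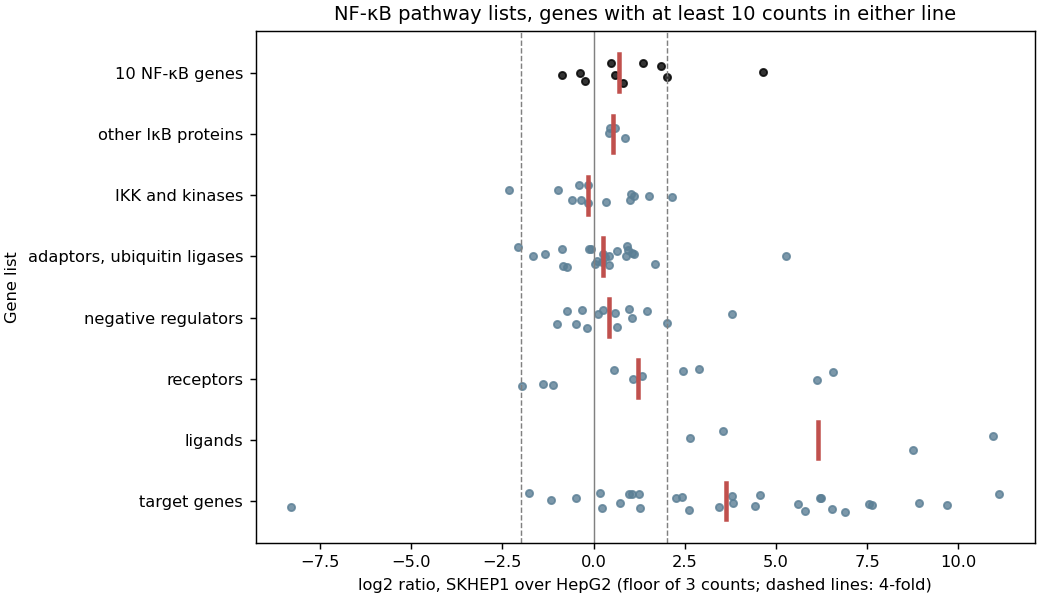
Log2 ratio, SKHEP1 over HepG2, of the 10 NF-κB genes (black) and of 7 pathway lists (blue), 1 point per gene that reached 10 counts in a line and counts under 3 set to 3; red bars are medians and dashed lines 4-fold. The lists for kinases and adaptors have medians of -0.15 and 0.26, and those for ligands and target genes 6.16 and 3.62. Both of the latter lists, and those for adaptors, negative regulators and receptors, include genes that reached 10 counts only in SKHEP1.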

How the data were processed

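Gene tables of 1 SKHEP1 and 1 HepG2 library were used, grouped by the cell line label. Per the submitters' processing notes, cutadapt, STAR, RSEM and DESeq2 were used with build hg19. Their versions, the annotation used and RSEM's strand setting were not given in the sources used here. Values of overlapping and antisense genes are uncertain for that reason. The deposited tables hold, per the file headers, RSEM expected counts, TPM, FPKM and isoform-weighted gene lengths.

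Expected counts were rounded and scaled to CPM of the TMM effective library size in edgeR 4.0.16 under R 4.3.3, with factors of 1.01 (SKHEP1) and 0.987 (HepG2). A gene was compared if it reached 10 expected counts in SKHEP1 or HepG2, and called higher in a line at 4-fold or more. A gene that reached 10 counts in a single line could therefore be called higher only in that line. Counts under 3 were set to 3 for calls and medians, which is 0.148 CPM in SKHEP1 and 0.135 CPM in HepG2. Levels have exact Poisson intervals, ratios exact conditional Clopper-Pearson intervals, and ratios of ratios the interval of the conditional odds ratio. No p-value was computed. Scripts ran in Python 3.11.15 with scipy 1.17.1, numpy 2.4.6, matplotlib 3.10.9 and pandas 2.3.3. The ratio and its interval were tested on simulated Poisson counts without variation between libraries. That checks the calculation and not the spread between replicates.

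The 10 genes and the lists were chosen with earlier results of these data known. The named genes are the 10 members, 14 fixed pathway genes, and per list up to 4 that differ most and reach 100 counts and up to 2 furthest against the list; the gene pairs set in ratio, and genes named beyond the rule, were chosen after values were seen. No genes with a like pattern are named, since 2 libraries give 1 ratio per gene. The marker PECAM1 was not analysed here. The file's identifier of IKBKE is not that of GENCODE 29, so IKBKE was matched by symbol. Overlaps and neighbours come from GENCODE 29 and promoter sequences from RefSeq (GRCh38.p14). Alternatives were other scalings, units, fold limits and count minimums.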

Additional observations from a re-analysis of the deposited data

How the results depend on the processing

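All alternatives were planned, except the other scalings and units at the 2-fold limit, which were chosen after seeing the data. Under total counts, DESeq2 1.42.0 size factors, housekeeping scaling, TPM, FPKM and unrounded counts, each of the 10 genes kept the sign of its log2 ratio. With housekeeping scaling, however, RELA (0.01) and TNFAIP3 (0.12) lay near 0. Of 60 such values, 16 moved beyond the counting interval, 10 of them under housekeeping scaling. BIRC3 ranged from 4.17 to 4.68 on the log2 scale and RELA from 0.01 to 0.61. Housekeeping scaling shifted the median of all genes by -0.47 and the other scalings and units by between -0.04 and 0.04. The count of genes at least 4-fold higher in SKHEP1, which was 2, was 1 with DESeq2 size factors, with housekeeping scaling, with an 8-fold limit and with the interval bound in place of the ratio, and 4 with a 2-fold limit; the gene lost was RELB. The count for HepG2 stayed at 0 in every alternative at 4-fold or more, and at 2-fold it was 1 with housekeeping scaling (NFKBIA), against 0. The median log2 ratio of the genes was 0.23 with housekeeping scaling, against 0.70. The RELA share of the subunits was 34.1% in SKHEP1 and 30.1% in HepG2 when gene length was not accounted for. Of the pathway lists, negative regulators higher in SKHEP1 numbered 1 with DESeq2 size factors and 1 with a minimum of 50 counts, against 2. The lists were recounted only under total counts, DESeq2 size factors, TPM and that minimum. They were not recounted with housekeeping scaling, where calls near the 4-fold limit in either line may change. No paired analysis was possible because each line has a single library and no test was made.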

Other observations

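The protein-coding genes on either side of each NF-κB gene (GENCODE 29 order) were also read, chosen after the main values were seen. Beside BIRC3, YAP1, the Hippo pathway coactivator, had 4949 counts in SKHEP1, against 4802 in HepG2, a CPM ratio of 1.13, and BIRC2 on the other side a ratio of 1.88, both far from the 24.9 of BIRC3. Beside RELB, CLPTM1 and CLASRP had ratios of 1.17 and 1.01, against 4.06 for RELB. NFKB2 lay beside GBF1, a Golgi exchange factor gene, with 3298 counts in SKHEP1, against 2397 in HepG2, a CPM ratio of 1.51. On its other side, PSD had 18 counts in SKHEP1 and 5 counts in HepG2. From these few counts its CPM ratio was 3.95, against 2.57 for NFKB2, so this neighbour differed in the same direction.

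Some of the other genes also had a neighbour that differed in the same direction. NXPE3, beside NFKBIZ, had 1357 counts in SKHEP1, against 356 in HepG2, a CPM ratio of 4.19, against 3.62 for NFKBIZ. PSMA6, a proteasome subunit gene beside NFKBIA, had 3307 counts in SKHEP1, against 9958 in HepG2 and was 2.74-fold higher in HepG2, against 1.82-fold for NFKBIA. PUS10, beside REL, was 6.41-fold higher in HepG2, where REL was 1.17-fold higher, while PAPOLG on its other side had a ratio of 1.04. Beside RELA, SIPA1 was 3.38-fold and KAT5 1.32-fold higher in SKHEP1. PERP, beside TNFAIP3, was 1.41-fold higher in HepG2, opposite to TNFAIP3, and SRGAP2, beside IKBKE, 1.39-fold higher in SKHEP1. The neighbours OLIG3, ZPLD1, INSM2 and RASSF5 were under 10 counts in both lines. NFKB1 lay between genes that differed in opposite directions, the metal transporter SLC39A8 with 297 counts in SKHEP1, against 6 in HepG2, and MANBA, a lysosomal mannosidase, with 206 in SKHEP1 and 821 in HepG2.

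The isoform-weighted length of the 10 genes differed by up to 1.19 times between the lines, for REL. For BIRC3 it was 4437 bases in SKHEP1 and 3970 in HepG2, from 6 listed transcripts. Which transcripts account for this was not analysed here, since the tables used give values per gene.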
